A study of Mus musculus with 186 samples.

Results

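A set of 10 genes of fatty acid uptake, transport, storage and synthesis was followed through single cells sorted from the epithelium of adult mouse mammary glands: Fabp3, Fabp4, Fabp5, Cd36, Lpl, Plin2, Pparg, Fasn, Scd1 and Scd2. They are 10 of the 25275 genes with a symbol in the count files, and all 10 were among the 14773 genes that passed a filter of at least 1 CPM (the gene's reads per 1000000 reads of the cell in the genes used) in at least 3 cells. The list was selected by symbol with these same data in view, namely the share of wells with a read, the number of wells that hold the reads, and co-detection with Pecam1 and Emcn. The values below are therefore descriptions, and no test was run on them.

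The data analysed here are of 96 basal and 90 luminal cells from 8 adult FVB/NJ mice, untreated and with no allele named beside the strain. Basal cells were gated as lineage-negative CD29hi CD24+ and luminal cells as lineage-negative CD29lo CD24+, where the lineage gate removed cells with CD31 (the product of Pecam1), CD45 or TER119 at the surface. Each cell was captured at 1 site of a Fluidigm C1 chip, here called a well, and the libraries were made on PCR plates A (basal only), B (both populations) and C (luminal only). The labels tie no cell to a mouse, so each population is 1 sample, cells are not replicates, and there is no replicate check on any difference below.

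The study's thresholds left 72 basal wells (50 on plate A, 22 on plate B) and 76 luminal wells (24 on plate B, 52 on plate C), with a median of 1189247 reads in the basal and 1459614 reads in the luminal wells. Of 10 basal markers (Krt5, Krt14, Acta2 and others) the median basal well held 10 and the median luminal well 2, and of 10 luminal markers (Krt8, Krt18, Epcam and others) the median luminal well held 9 and the median basal well 4. Some wells stood apart from both labels. With a list of 20 endothelial markers, 11 of the 148 wells held 8 or more of them, 0 wells held 6 or 7, and the other 137 held at most 5, while the median luminal well held 2, summing to 41.4 CPM. These 11, called marker-rich below, were basal cells 63, 71, 72, 80, 82 and 95, all on plate B, and luminal cells 25, 27, 55, 71 and 86, all on plate C. The number 8 was chosen after the counts had been seen, and results that rest on these wells are given with and without them.

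Fatty acids reach the mammary epithelium from triglyceride-rich lipoproteins in blood, from which lipoprotein lipase frees them at the capillary wall, and from synthesis inside the cell. The scavenger receptor CD36 takes long-chain fatty acids across the plasma membrane, fatty acid binding proteins carry them in the cytosol, and perilipins coat the droplets in which they are stored as triglyceride. In the gland the luminal cells make milk fat, while capillary endothelium and adipocytes in the fat pad around the ducts use many of the same genes.

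The binding proteins and the desaturases are families of related sequence, and the next lines show how far their reads could be confused. The coding sequences were taken from GENCODE M21 on GRCm38 (the assembly of mm10). Over aligned coding bases Fabp3 and Fabp4 were 67.4% identical, Fabp4 and Fabp5 63.1%, and Fabp3 and Fabp5 59.1%. The longest run without a mismatch in the coding sequences was 14, 12 and 10 bases for these 3 pairs. Scd1 and Scd2 were 90.7% identical and shared an unbroken run of 147 bases. The stretches around the longest shared run are printed 5′ to 3′ on the coding strand with the shared run in capitals, for Fabp4 (coding bases 75 to 146) against Fabp5 (81 to 152) and for Scd1 (463 to 729) against Scd2 (472 to 738).
Fabp4: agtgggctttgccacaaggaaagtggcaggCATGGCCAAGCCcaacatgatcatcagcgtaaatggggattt
Fabp5: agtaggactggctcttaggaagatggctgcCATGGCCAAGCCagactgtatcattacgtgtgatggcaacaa
Scd1: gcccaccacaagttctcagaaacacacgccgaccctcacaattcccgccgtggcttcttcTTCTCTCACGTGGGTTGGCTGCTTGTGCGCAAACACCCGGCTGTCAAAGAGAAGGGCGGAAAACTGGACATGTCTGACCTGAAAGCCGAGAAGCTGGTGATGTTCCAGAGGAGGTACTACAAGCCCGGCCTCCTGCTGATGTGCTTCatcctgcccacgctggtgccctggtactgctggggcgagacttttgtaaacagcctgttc
Scd2: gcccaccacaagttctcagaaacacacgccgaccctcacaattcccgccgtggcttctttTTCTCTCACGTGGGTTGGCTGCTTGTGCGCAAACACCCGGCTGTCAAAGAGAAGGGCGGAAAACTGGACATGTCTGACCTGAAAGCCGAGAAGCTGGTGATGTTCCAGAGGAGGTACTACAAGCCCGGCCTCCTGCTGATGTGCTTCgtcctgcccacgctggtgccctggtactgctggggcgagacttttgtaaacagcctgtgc
A read that lies inside the Scd1 and Scd2 run could come from either gene. How the counting treated reads that map to more than 1 gene is not given in the sources used here, so the split between Scd1 and Scd2 is uncertain to that extent. On mm10, the build of all coordinates here, Fabp3 (chr4:130308738-130315463) also overlaps Zcchc17, and Scd2 (chr19:44293676-44306864) contains Mir5114. Whether counting used strand is not given either, so reads in those overlaps could not be assigned to 1 gene with certainty.

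Across the sums of all passing wells, 4 of the 10 genes (Fabp3, Plin2, Scd1 and Scd2) were at least 2-fold higher in luminal cells and 2 (Fabp4 and Fabp5) were at least 2-fold higher in basal cells. Cd36, Lpl, Pparg and Fasn lay within 2-fold. Among all 14773 genes, 28.4% were at least 2-fold higher in luminal and 18.3% at least 2-fold higher in basal cells by the same rule (summed CPM, 1 CPM added). Over the 10 genes the log2 ratio (luminal over basal) had a median of 0.76, and over all genes of 0.18. A median basal well held a read of 3 of the 10 genes (0 to 7) and a median luminal well of 5 (0 to 9).

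The set of wells changed this count. On plate B alone 5 genes (Fabp3, Plin2, Fasn, Scd1 and Scd2) were at least 2-fold higher in luminal and 4 (Fabp4, Fabp5, Cd36 and Pparg) at least 2-fold higher in basal cells, where 41.4% and 17.3% of all genes were. The wells of that plate were not alike in detection. Its passing basal wells held a median of 3085 genes, against 5600.5 in its luminal wells and 4872.5 in the basal wells of plate A. On plate B 14 of 36 basal and 0 of 24 luminal wells fell below the thresholds. Without the 11 marker-rich wells 5 genes (Fabp3, Lpl, Plin2, Scd1 and Scd2) were higher in luminal and only Fabp5 was higher in basal cells, where 28.4% and 18.4% of all genes were. Fabp3, Plin2, Scd1 and Scd2 were higher in luminal cells and Fabp5 in basal cells in each of these 3 sets of wells, while Fabp4, Cd36, Lpl and Pparg took both signs.

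**Figure D1:**
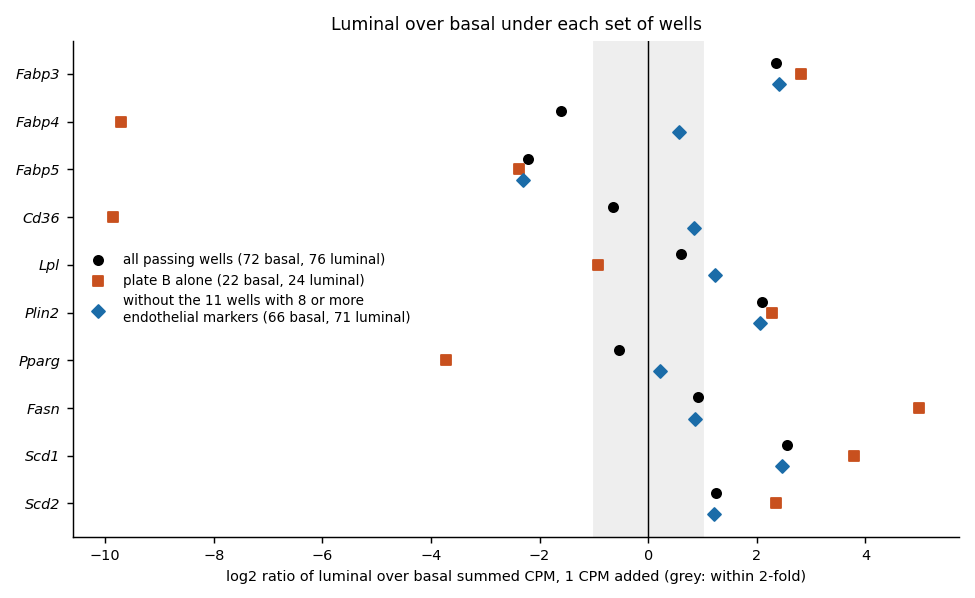
Log2 ratio of luminal over basal summed CPM (1 CPM added, horizontal axis) for each gene over all passing wells (circles), plate B alone (squares) and all wells but the 11 marker-rich ones (diamonds); grey marks ratios within 2-fold. Fabp4 and Cd36 move from about -9.71 and -9.86 on plate B to 0.57 and 0.84 without the marker-rich wells, while Fabp5 stays between -2.38 and -2.22 and Plin2 between 2.05 and 2.27.

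Per kilobase of exon (RPKM), Fabp4 was highest of the 10 genes in both populations, at 799 in basal and 261 in luminal cells. In basal cells the order of summed RPKM went on with Cd36 (117), Plin2 (54.7), Fabp5 (36.8), Scd1 (11.4), Lpl (5.52), Fasn (2.59), Pparg (2.39), Scd2 (2.06) and Fabp3 (0.093). In luminal cells it went on with Plin2 (237), Cd36 (74.7), Scd1 (67.8), Lpl (8.51), Fabp5 (7.05), Fabp3 (6.94), Scd2 (5.15), Fasn (4.95) and Pparg (1.49). The exact Poisson intervals of Fasn and Pparg and of Pparg and Scd2 overlapped in basal cells, as did those of Fabp5 and Fabp3 and of Scd2 and Fasn in luminal cells. These intervals cover counting error and not the spread between wells, so they do not settle the order of the other genes either. Without the 11 marker-rich wells Plin2 led both orders, at 59.1 RPKM in basal and 247 in luminal cells, where Fabp4 stood at 2.26 and 4.11. The interval of Fabp4 in those basal wells overlapped those of Fasn (2.80) and Scd2 (2.22).

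These sums hide how few wells hold the reads. In 6 of the 20 pairs of gene and population a single well held over 50% of the reads: Fabp3, Cd36 and Pparg, each in both populations. Over all genes with at least 100 reads, a single well held over 50% in 32.3% of genes in basal and 23.2% in luminal cells, and the median gene had 35.9% and 28.7% of its reads in its top well. The other 14 pairs lay under 50%, so the count of pairs over 50% was near the share over all genes, and Fabp3 in basal cells had only 5 reads.

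**Figure D2:**
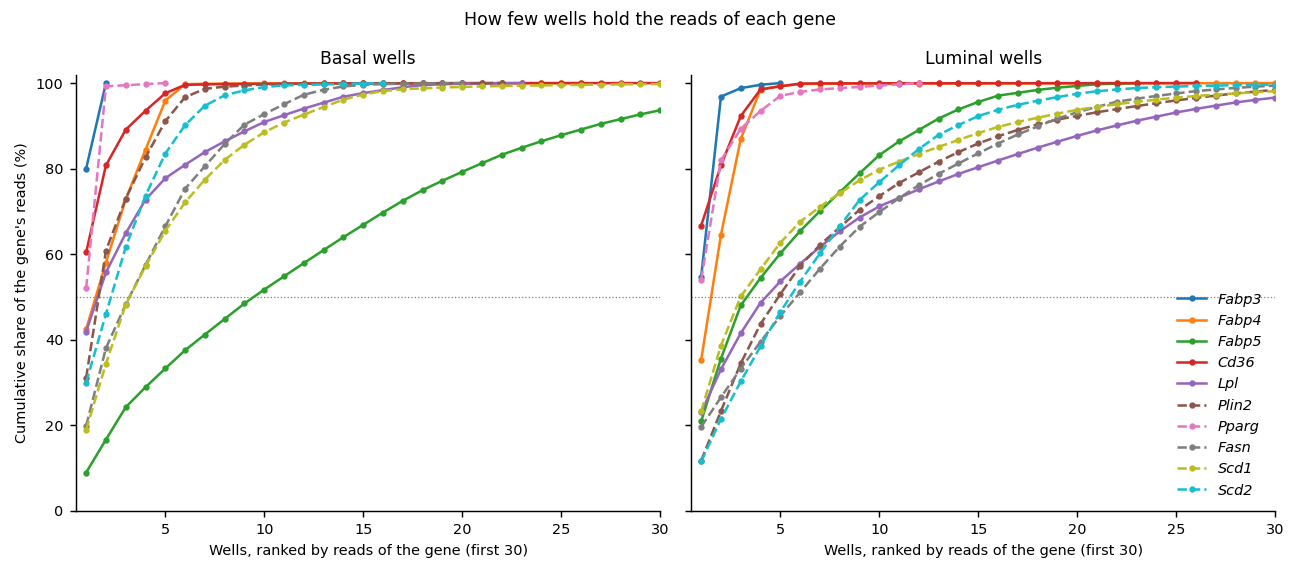
Cumulative share of each gene's reads (vertical axis, %) over wells ranked by reads of that gene (horizontal axis, first 30 wells), in basal and luminal wells. Fabp5 in basal wells climbs slowest, with 10 wells for the first 50% of its reads, while Fabp3, Cd36 and Pparg pass 50% with their top well in both populations.

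Lpl (chr8:68880555-68906932) encodes lipoprotein lipase, which releases fatty acids from lipoprotein triglyceride. It stood at 22.3 CPM in basal cells (95% interval of the count 21.3 to 23.4) and at 34.4 CPM in luminal cells (33.4 to 35.5). A read was found in 23 of 72 basal wells (31.9%, interval 21.4 to 44.0) and 43 of 76 luminal wells (56.6%, 44.7 to 67.9). The luminal reads were spread, with a lowest, median and highest CPM of 0, 7.01 and 643 and 5 wells for 50% of reads. The basal reads were not: marker-rich basal cell 63 held 786 of 1878 reads (41.9%), at 1223 CPM, and the median basal well had 0. Without the marker-rich wells the basal level was 13.2 CPM, the luminal level 32.2 CPM and the log2 ratio 1.22, against 0.60 with them and -0.92 on plate B.

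Cd36 (chr5:17781690-17888959) encodes the fatty acid translocase at the cell surface. It stood at 461 CPM in basal cells (457 to 466) and at 293 CPM in luminal cells (290 to 296). The median well of each population held 0 reads. The highest held 15858 CPM (basal cell 95, 60.4% of 38755 basal reads) and 13196 CPM (luminal cell 25, 66.7% of 33412 luminal reads). In the 6 marker-rich basal wells Cd36 ranged from 1185 to 15858 CPM with a median of 2848, and in the 5 marker-rich luminal wells from 3.27 to 13196 with a median of 3102. In the other basal wells the highest value was 584 CPM, from 40 reads in basal cell 17, the passing basal well with the fewest reads (69933). In the other luminal wells the highest was 183 CPM, and the median of both sets was 0. Cd36 was thus high in 10 wells, all marker-rich, and no passing well lay between 584 and 1185 CPM. Luminal cell 86, also marker-rich, held the 3.27 CPM, so the marker-rich wells as a group overlapped the other wells. Those 10 wells were set apart by their Cd36 level, so the gap below them is a description and not a separate result.

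A read of Cd36 was found far more widely than a high level. At full depth 30 of 72 basal wells (41.7%, interval 30.2 to 53.9) and 26 of 76 luminal wells (34.2%, 23.7 to 46.0) held one. With each well thinned to 50000 reads 15.3% of basal and 9.21% of luminal wells did. At least 10 CPM was reached in 10 basal and 7 luminal wells.

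The fatty acid binding proteins are small cytosolic carriers, and the 3 measured here had unlike patterns. Fabp4 is the carrier known from adipocytes, macrophages and capillary endothelium, Fabp5 the epidermal form and Fabp3 the heart and mammary form.

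Fabp4 (chr3:10204342-10208616) stood at 513 CPM in basal (508 to 518) and at 167 CPM in luminal cells (165 to 170). The lowest and median wells held 0 and the highest 12156 CPM (basal cell 72) and 7054 CPM (luminal cell 27). Basal cells 72, 82, 95, 80, 63 and 71 held 18297, 6715, 6396, 5003, 4952 and 1651 of the 43127 basal reads. Luminal cells 25, 27, 71 and 55 held 6716, 5579, 4272 and 2203 of the 19057 luminal reads. Those 10 wells are marker-rich, and the eleventh, luminal cell 86, held 0 Fabp4 reads and only 31.0 CPM summed over the endothelial markers. In the other wells Fabp4 reached at most 584 CPM in basal cells and 161 CPM in luminal cells, below the lowest value in those 10 wells, 1670 CPM. The values of 584 and 161 CPM were in the passing well of each population with the fewest reads. By plate, Fabp4 stood at 1.80 CPM in the basal wells of plate A and 1537 CPM in those of plate B, and at 0.843 CPM in the luminal wells of plate B and 247 CPM in those of plate C. The same population thus differed between its plates by more than the populations did over all wells.

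Fabp5 (chr3:10012585-10016610) was the gene of the list with the most even spread in basal cells. It stood at 34.3 CPM in basal (33.0 to 35.5) and at 6.57 CPM in luminal cells (6.10 to 7.05), which is -2.22 as a log2 ratio. A read was found in 44 of 72 basal wells (61.1%, 48.9 to 72.4) and 23 of 76 luminal wells (30.3%, 20.2 to 41.9). At 50000 reads the shares were 45.8% and 19.7%. The lowest, median and highest basal values were 0, 13.5 and 213 CPM, and the luminal ones 0, 0 and 118 CPM. The top basal well held 8.89% of the reads and 10 wells held 50%. Without the marker-rich wells its log2 ratio was -2.31, and on plate B alone -2.38. Of the 622 basal reads on plate B, 443 lay in the 6 marker-rich wells, so the plate B ratio rests largely on them. Plate B without those wells was not summed. Basal cells on plate A had a median of 20.1 CPM and those on plate B 1.88 CPM.

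Fabp3 was barely detected in basal cells, with 5 reads in 2 wells of plate A (0.0595 CPM, 0.0193 to 0.139). In luminal cells it had 4.44 CPM (4.06 to 4.85), and luminal cells 66 and 6 held 277 and 213 of the 506 reads, at 198 and 137 CPM. These 2 wells are on plates C and B, and no other well passed 10 CPM. The luminal difference in Fabp3 (log2 2.36) was 1.52 without the top well and 0.52 with 10 CPM added in place of 1, so its size rested on 2 wells and on the added constant.

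**Figure D3:**
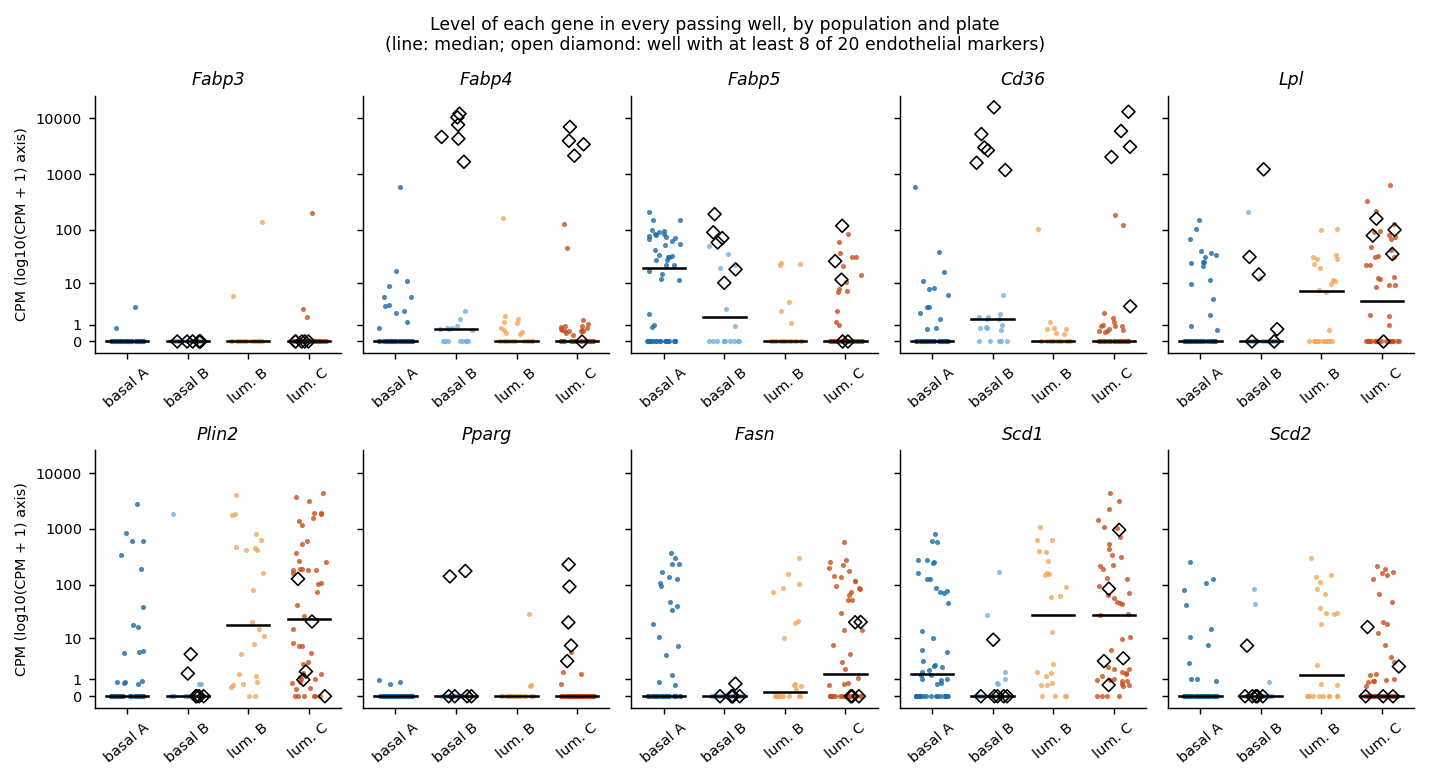
CPM of each gene in every passing well (vertical axis, log10(CPM + 1)), by population and PCR plate; dots are wells, lines are medians and open diamonds are the 11 marker-rich wells. Fabp4 and Cd36 lie above 1000 CPM in 10 diamonds and below 600 CPM in every other well, whereas Plin2, Fasn, Scd1 and Scd2 reach their highest values in wells that are not diamonds.

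Plin2 (chr4:86626910-86670217) encodes perilipin 2, the coat protein of cytosolic lipid droplets and of the milk fat globule. It stood at 103 CPM in basal (101 to 105) and at 446 CPM in luminal cells (442 to 450), which is 2.10 as a log2 ratio. A read was found in 22 of 72 basal wells (30.6%, 20.2 to 42.5) and 67 of 76 luminal wells (88.2%, 78.7 to 94.4), or 15.3% and 56.6% at 50000 reads. The lowest, median and highest luminal values were 0, 20.8 and 4511 CPM. The basal ones were 0, 0 and 2753 CPM, and basal cells 45 and 70 held 2694 and 2576 of 8669 reads. Luminal Plin2 needed 5 wells for 50% and 18 for 90% of its reads, so a broad low level and a few very high wells were both present. On plate B the 22 basal wells had 92.3 CPM, but 99.7% of those reads were in basal cell 70. The marker-rich wells held 0.229% of the Plin2 reads.

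The 3 enzymes of fatty acid synthesis and desaturation had higher luminal than basal sums over all wells, on plate B and without the marker-rich wells, though Fasn lay within 2-fold outside plate B. Fasn, fatty acid synthase, makes palmitate, and Scd1 and Scd2, stearoyl-CoA desaturases, put a double bond into saturated fatty acids.

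Scd1 (chr19:44394450-44407709) stood at 55.2 CPM in basal (53.6 to 56.8) and at 328 CPM in luminal cells (325 to 331), which is 2.55 as a log2 ratio. It was found in 39 of 72 basal (54.2%) and 68 of 76 luminal wells (89.5%), or 29.2% and 55.3% at 50000 reads. The median was 0.721 CPM in basal and 28.2 CPM in luminal wells, and the highest values were 803 and 4452 CPM. Luminal cells 45, 39 and 31 held 8687, 5731 and 4295 of 37368 reads. Basal Scd1 lay mostly on plate A: 78.0 CPM there (median well 1.56) against 9.54 CPM on plate B (median well 0), where basal cell 64 held 214 of 267 reads.

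Scd2 was lower than Scd1 per kilobase in both populations, at 2.06 RPKM against 11.4 in basal and 5.15 against 67.8 in luminal cells. It stood at 11.3 CPM in basal (10.5 to 12.0) and at 28.1 CPM in luminal cells (27.1 to 29.1), in 16 and 38 wells. Its luminal reads were spread thinly, with at most 295 CPM in a well and 6 wells for 50%. Over the 76 luminal wells Scd1 and Scd2 had a Spearman rho of 0.32 (log2 CPM, 36 wells with both), with reads that may be shared between them.

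Fasn (chr11:120805958-120825166) stood at 25.7 CPM in basal (24.7 to 26.9) and at 49.2 CPM in luminal cells (48.0 to 50.5), within 2-fold of each other. It was found in 20 of 72 basal and 42 of 76 luminal wells. In basal cells the plates differed more than the populations did: 2163 of the 2164 basal reads lay on plate A, at 38.6 CPM in 19 of 50 wells. On plate B the 22 basal wells held 1 read (0.0357 CPM, 0.000905 to 0.199), against 31.9 CPM in the 24 luminal wells of that plate and 57.5 CPM in the luminal wells of plate C. The highest luminal value was 578 CPM in luminal cell 31, a well that also held 3112 CPM of Plin2 and 2259 CPM of Scd1. The 2 wells with the highest Plin2 levels differed in the enzymes: luminal cell 56 (4511 CPM of Plin2) held 1070 CPM of Scd1 and 4.82 CPM of Fasn, and luminal cell 9 (4082 CPM of Plin2) held 0 of Scd1, Scd2 and Fasn. The 6 marker-rich wells among the basal wells of plate B held that 1 read, in basal cell 95.

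Pparg (chr6:115360879-115490404) encodes the nuclear receptor that drives the fat cell program and has Fabp4 and Cd36 among its known target genes. It was the lowest of the 10 genes in luminal cells per kilobase. It stood at 4.74 CPM in basal (4.28 to 5.22) and at 2.96 CPM in luminal cells (2.65 to 3.29), with a read in 5 of 72 basal and 12 of 76 luminal wells. Basal cells 95 and 80 held 207 and 188 of 398 reads. Luminal cells 27, 55 and 71 held 182, 94 and 25 of 337 reads. All 5 of these wells are marker-rich, and without the 11 marker-rich wells 3 basal and 23 luminal reads remained. The other 4 basal marker-rich wells held Fabp4 and Cd36 at high levels and 0 Pparg reads.

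For Cd36 and Pparg, which were high in some of the same wells, RefSeq gives the sequence before the transcription start on GRCm38.p6. Of the 10 genes, 5 matched this set with 7 starts in all: Fabp3, Cd36, Plin2, Fasn and Pparg (3 starts). Fabp4, Fabp5, Lpl, Scd1 and Scd2 had no match. Which start was used cannot be read from counts per gene. The 250 bases before the Cd36 start of this set (chr5:17835897-17836146, minus strand) and before a Pparg start (chr6:115362099-115362348, plus strand) are printed 5′ to 3′ to show their motifs. This Cd36 window lies inside the span of the gene given above, so it is not the only possible start. Capitals mark the nuclear receptor half-site AGGTCA, the CCAAT box CCAAT and the TATA box TATAAA, on either strand.
Cd36: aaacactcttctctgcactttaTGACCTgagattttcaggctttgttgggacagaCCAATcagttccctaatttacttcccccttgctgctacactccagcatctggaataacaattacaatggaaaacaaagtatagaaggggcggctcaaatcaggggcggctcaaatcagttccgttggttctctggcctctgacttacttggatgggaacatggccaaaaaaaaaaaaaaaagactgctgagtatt
Pparg: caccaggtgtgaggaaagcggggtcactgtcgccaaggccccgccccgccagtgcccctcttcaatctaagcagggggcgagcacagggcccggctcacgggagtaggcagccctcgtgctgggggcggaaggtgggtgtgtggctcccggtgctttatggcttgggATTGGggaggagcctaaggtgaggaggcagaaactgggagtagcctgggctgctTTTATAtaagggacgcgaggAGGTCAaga
AGGTCA stood at position -228 from this Cd36 start (minus strand of the promoter) and at position -9 from this Pparg start. It was present in 4 of the 7 starts of these genes (Cd36, Plin2 and 2 of Pparg) and in 14.0% of all 32851 promoter windows of this length. CCAAT was present in 5 of the 7 and in 33.8% of all. TATAAA was present in 1 of the 7 and in 12.4% of all. The PPAR element, searched only as an exact direct repeat of the half-site with a spacer of 1 base, was in 0 of the 7 and in 0.0335% of all. A string this rare is unlikely in any 7 windows, so its absence does not show that PPAR sites are absent. The E-box CACGTG and the sterol regulatory element TCACNCCAC were each in 0 of the 7 and in 6.02% and 1.05% of all. All motifs were searched on both strands, and a direct repeat contains half-sites. These are matches of letters only.

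The marker-rich wells held 99.4% of all Fabp4 reads, 99.1% of Cd36 reads and 96.5% of Pparg reads over both populations. They were 7.43% of the passing wells and held 5.75% of all reads. Of 13421 genes with at least 100 reads, 171 (1.27%) had over 90% of their reads in these 11 wells. Fabp4, Cd36 and Pparg were 3 of the 10 genes here, and no other member passed 50%: Lpl had 21.9% and Fabp5 16.2% of reads there, Scd1 3.09%, Scd2 0.554%, Fasn 0.489%, Plin2 0.229% and Fabp3 0%. The list of 20 markers holds Pecam1 and Emcn but none of the 10 genes.

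**Figure D4:**
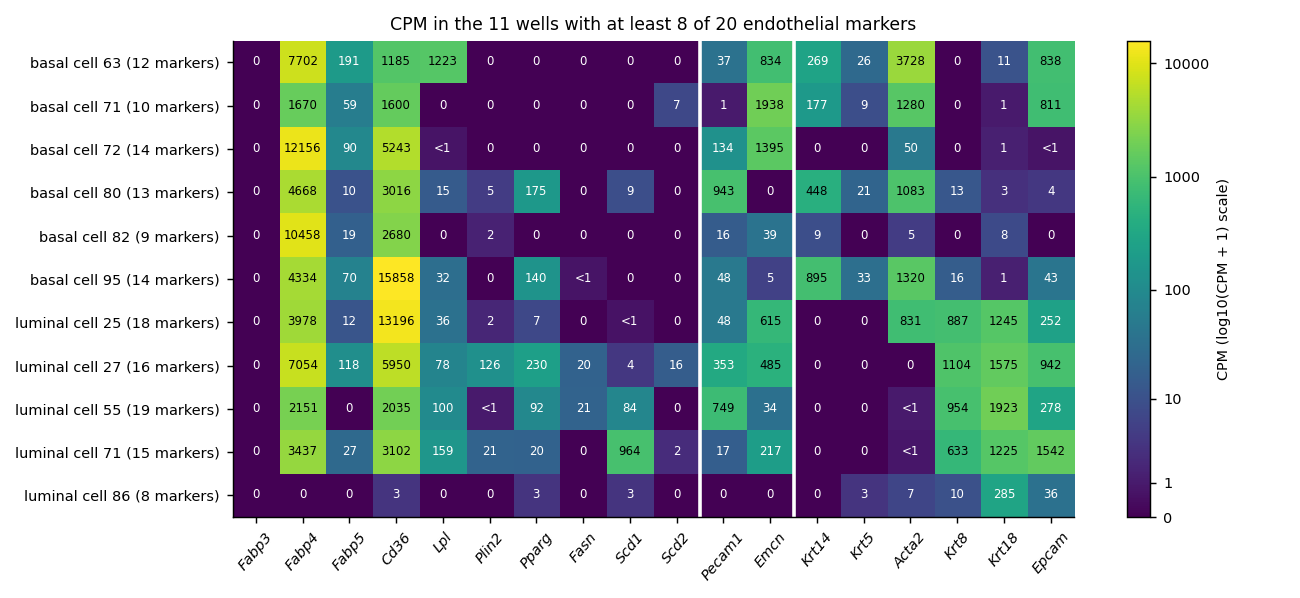
CPM (colour on a log10(CPM + 1) scale, value printed in each square, those between 0 and 1 as <1) of the 10 genes, Pecam1, Emcn and 6 epithelial markers in the 11 marker-rich wells. Fabp4 and Cd36 are above 1000 CPM in the first 10 rows, Pparg is at most 230 CPM and at 0 in 4 of the basal rows, and the keratin columns differ between the basal and the luminal rows.

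Pecam1 encodes CD31, the adhesion molecule of endothelial cell contacts, and Emcn encodes endomucin, a sialomucin of capillaries and veins. Pecam1 stood at 15.7 CPM in basal and at 11.1 CPM in luminal cells, and Emcn 54.6 and 15.4 CPM. Both varied among the marker-rich wells. Basal cells 72, 71 and 63 held 2100, 1916 and 536 of the 4586 basal Emcn reads, and basal cell 80 held 1011 of the 1323 basal Pecam1 reads and 0 of Emcn. Cd93, which encodes a receptor of endothelial cells and was among the genes most like Fabp4 and Cd36, had 6406 and 6300 reads in basal cells 80 and 95 and 7, 3 and 30 reads in basal cells 63, 71 and 72. Luminal cells 25, 27 and 71 held both, with 1039, 384 and 270 reads of Emcn and 2521, 3013 and 670 reads of Cd93. Fabp4 and Cd36 were above 1000 CPM in all of these wells.

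At full depth 57 wells held a Fabp4 read, and 18 of them (31.6%, interval 19.9 to 45.2) also held a read of Pecam1 or Emcn, against 16.5% of the wells without Fabp4. For Cd36 it was 14 of 56 wells (25.0%, 14.4 to 38.4), against 20.7% of the wells without Cd36. At a level of 10 CPM for the gene and for Pecam1 or Emcn, 10 of 16 Fabp4 wells and 10 of 17 Cd36 wells held both, and 12 wells in all held Pecam1 or Emcn at that level. With each well thinned to 50000 reads, 11 of 17 Fabp4 wells and 11 of 18 Cd36 wells did. For Pparg, 9 of 17 wells held Pecam1 or Emcn (52.9%, 27.8 to 77.0), and those wells held 97.0% of the Pparg reads. For Plin2 it was 25 of 89 wells, which held 27.0% of its reads.

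**Figure D5:**
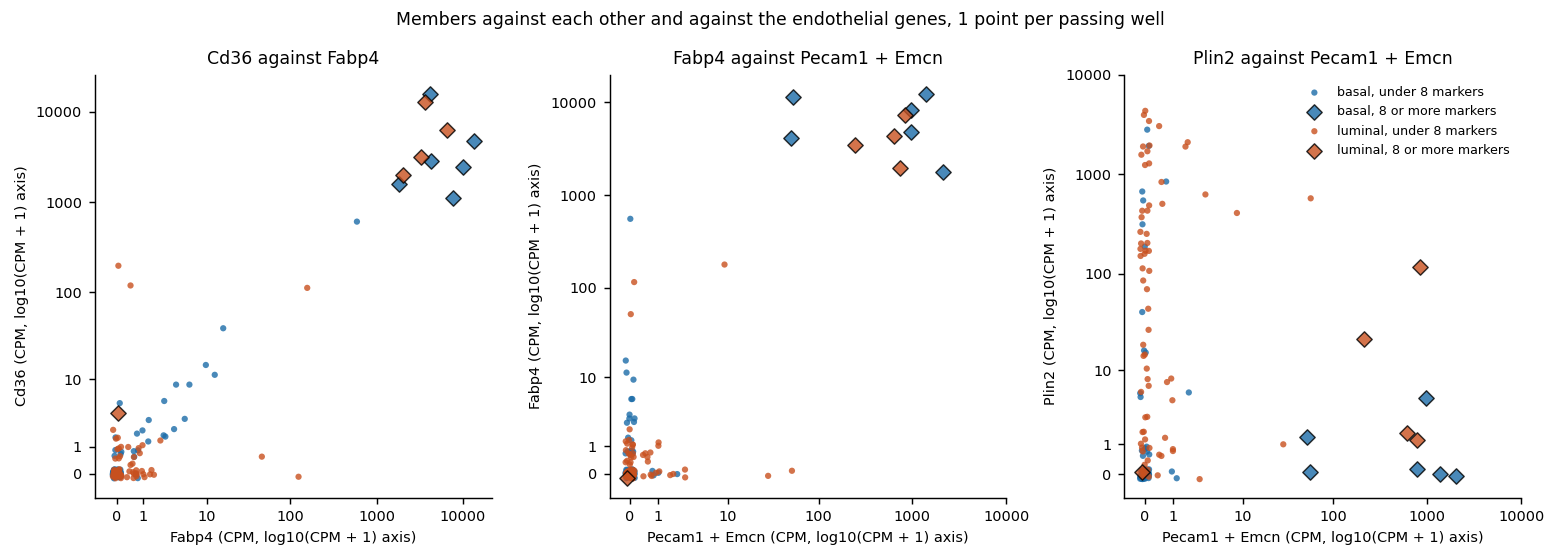
Each point is a passing well (axes in CPM on a log10(CPM + 1) scale, points jittered slightly): Cd36 against Fabp4, Fabp4 against Pecam1 plus Emcn, and Plin2 against Pecam1 plus Emcn, with marker-rich wells as outlined diamonds. The 10 diamonds at upper right of the first panel also hold Pecam1 or Emcn, some basal wells hold Fabp4 and Cd36 at a low level, and the highest Plin2 values lie at or near 0 of Pecam1 plus Emcn.

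Other cell types' markers in the 11 wells were as follows. Of 10 adipocyte markers, 8 were at 0 in all 11 wells (Adipoq, Plin1, Cidec, Lep, Retn, Cfd, Adrb3 and Pck1), and the list summed to 0 to 6.20 CPM per well, against 0 to 885 CPM in all basal and 0 to 17.6 CPM in all luminal wells. Of 20 immune markers the 11 wells held 0 to 4, summing to 0 to 127 CPM with a median of 0.663. Of 10 pericyte markers they held 0 to 9 with a median of 3, summing to 0 to 2271 CPM with a median of 358, against medians of 0 CPM over all basal and 3.46 CPM over all luminal wells. Of 20 fibroblast markers they held 2 to 18 with a median of 6, summing to 56.1 to 10793 CPM, with a median of 387 CPM against 803 CPM over all basal and 208 CPM over all luminal wells. The part of pericyte, fibroblast and immune RNA in the levels of Fabp4, Cd36 and Pparg was not tested.

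Epithelial markers in the same wells differed by population. The 4 luminal wells with high Fabp4 held Krt8 at 633 to 1104 CPM and Krt18 at 1225 to 1923 CPM, with Krt14 and Krt5 at 0. Luminal cell 25 also held Acta2 at 831 CPM and 4 of the 10 basal markers, summing to 3564 CPM, while Acta2 was under 1 CPM in the other 3. Basal cells 63, 71, 80 and 95 held Acta2 at 1083 to 3728 CPM and Krt14 at 177 to 895 CPM. Basal cells 72 and 82 held Krt14 at 0 and 9.34 CPM and Epcam at 0.664 and 0 CPM. Whether such a well held 1 cell, more than 1 cell or RNA from outside the cell was not tested.

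Fabp4 and Cd36 were also found together at a few reads in wells outside the 11. In the other 66 basal wells 20 held Fabp4 and 24 held Cd36, and 18 held both. Their Spearman rho over these 66 wells was 0.82 (log2 CPM), and the points share libraries and plates. The counts were small: a median of 3 reads of each gene where found, and 113 Fabp4 and 161 Cd36 reads in all. On plate A 12 wells held Fabp4 and all 12 held Cd36, such as basal cell 17 (40 reads of each, 584 CPM), basal cell 1 (14 and 31 reads) and basal cell 8 (12 and 12). None of the 18 basal wells with both genes held a read of Pecam1 or Emcn, while 11 of them (9 on plate A) held a read of Cd93, at most 13 reads, as in basal cells 1 and 17.

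In the other 71 luminal wells 27 held Fabp4, 21 held Cd36 and 11 held both, with a rho of 0.16. Luminal cells 31 and 52 held 234 and 218 Cd36 reads with 1 and 0 Fabp4 reads. Luminal cells 60 and 39 held 154 and 85 Fabp4 reads with 0 and 1 Cd36 reads. In those 4 wells, all on plate C, the gene with the higher count stood at 46.9 to 183 CPM and the other at under 1 CPM. Luminal cell 23 on plate B held both, with 17 Fabp4 and 11 Cd36 reads (161 and 104 CPM), and 3 reads of Pparg, 1 of Pecam1 and 3 of Cd93. It was the passing luminal well with the fewest reads (105636). The difference in joint detection between the populations has no test.

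Across all 148 wells, genes most like each member were found by Spearman rho of log2(CPM + 1) among 12665 genes with a read in at least 10 wells. These rhos are descriptions over wells that share plates, and many points are 0. They pool both populations, so they also take in differences between basal and luminal cells. Nearest to Fabp4 were Cd36 (0.62), Cd93 (0.60) and Gimap6 (0.49). Nearest to Cd36 were Fabp4 and Cd93 (each 0.62) and Tgtp2 (0.51). Pparg was nearest to Depp1 (0.54), to Egfl7 (0.51), which encodes an endothelial secreted factor, and to Clic5 (0.51). Within basal cells alone Fabp4 and Cd36 reached 0.87, and within luminal cells 0.31. Within luminal cells neither Cd93 nor the other gene of this pair was among the 3 genes nearest to Fabp4 or to Cd36.

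Plin2 and Fabp5 had other neighbours. Over both populations pooled, Plin2 was nearest to Ehf (0.65), a transcription factor of epithelia, to Csn1s1 (0.63), which encodes a milk casein, and to Wfdc18 (0.61). None of these was among the 3 genes nearest to Plin2 within luminal or within basal cells. Within luminal cells Plin2 was nearest to Trf (0.66), which encodes transferrin. Among the genes most like Fabp5 were Vwa1 (0.50) and Cpne2 (0.49), and within luminal cells Rspo1 (0.68), a secreted Wnt potentiator, and Thbs1 (0.62). Scd1 was nearest to Gmcl1 (0.50), to Elf5 (0.46), a transcription factor of alveolar luminal cells, and to Mfap1b (0.46). The nearest genes to Lpl (Wdfy1, Arpc1b and Setd2), Fasn (Tmem106c, Tnpo1 and Car2) and Scd2 (Tmem30b, Pex13 and Uri1) had a rho of 0.41 to 0.47. Among the members themselves Plin2 reached 0.31 with Fasn and 0.22 with Scd1 in luminal cells.

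Other genes of the pathway were read from 5 lists. Over all genes 28.4% were at least 2-fold higher in luminal and 18.3% in basal cells. Of 16 measured genes of uptake and activation 3 were at least 2-fold higher in luminal and 1 in basal cells. Of 17 genes of droplets and storage 9 were higher in luminal and 2 in basal cells, of 13 genes of synthesis 2 and 2, of 14 regulators 5 and 6, and of 4 further carriers 1 and 0. The medians of the log2 ratio were 0.69 for uptake, 1.10 for storage, -0.12 for synthesis, -0.42 for regulators and 0.02 for carriers, against 0.18 over all genes. Some genes counted as higher had most of their reads in 1 well. Examples, singled out after their values were seen, are Slc27a2 (luminal cell 6, 94.9%) and Gpam (luminal cell 59, 95.4%). Nr1h3 is another (marker-rich basal cell 82, 91.2%), and its log2 ratio went from -2.78 to 0.80 without the marker-rich wells. The counts of these lists were not repeated on plate B or without those wells.

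The genes of highest RPKM in the uptake list and the carrier Dbi had a read in more wells than Fabp4 or Cd36. Dbi, the acyl-CoA binding protein, stood at 127 CPM in basal and at 128 CPM in luminal cells, in 64 and 65 wells. Cav1, the caveolar coat protein, had 584 and 346 CPM in 64 and 55 wells, and Acsl4, an acyl-CoA synthetase, 443 and 336 CPM in 64 and 71 wells. Angptl4, a secreted inhibitor of lipoprotein lipase, had 101 and 138 CPM in 31 and 40 wells. On plate B the log2 ratio of Angptl4 was -1.24, that of Acsl4 0.42 and that of Dbi 1.07, against 0.45, -0.40 and 0.01 over all wells.

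On the storage side, Hilpda, an inhibitor of triglyceride breakdown (109 and 115 CPM in basal and luminal cells), Pnpla2, the adipose triglyceride lipase (94.3 and 140 CPM), and Bscl2, seipin (49.5 and 64.7 CPM), lay within 2-fold. Lpin1, a phosphatidate phosphatase, stood at 10.1 CPM in basal and at 114 CPM in luminal cells. Btn1a1, butyrophilin, a protein of the milk fat globule membrane, had 0.0357 CPM in 2 basal wells and 114 CPM in 38 luminal wells. Plate B alone gave Lpin1 and Btn1a1 log2 ratios of 1.37 and 4.51, Hilpda -0.59, Pnpla2 -1.75 and Bscl2 1.91, so Pnpla2 and Bscl2 were beyond 2-fold there, in opposite directions.

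In synthesis Elovl1, a fatty acid elongase (144 and 184 CPM), and Acly, ATP citrate lyase (179 and 101 CPM), lay within 2-fold, while Thrsp, a regulator of lipogenesis, stood at 6.77 CPM in basal and at 89.2 CPM in luminal cells but its log2 ratio on plate B was -0.34. On that plate Elovl1 was at 1.12 and Acly at -1.99. Among regulators Cebpb, a transcription factor of fat cell differentiation, stood at 186 CPM in basal and at 44.5 CPM in luminal cells, with a read in 72 of 72 and 72 of 76 wells. Nr1h2, a liver X receptor, had 51.5 and 19.8 CPM and Scap, the escort of sterol regulatory proteins, 24.3 and 70.3 CPM. The log2 ratio of Nr1h2 was -1.34 over all wells and 0.41 on plate B, while Scap was at 1.49 and 4.00 and Cebpb at -2.04 and -1.58. Among carriers Acbd3, an acyl-CoA binding protein of the Golgi, had 21.9 and 84.3 CPM, and Pmp2, the binding protein of myelin, had 96.0% of its 124 reads in marker-rich luminal cell 71 and did not pass the filter. Gpihbp1, the capillary anchor of lipoprotein lipase, was singled out after its values were seen: 99.98% of its reads lay in the marker-rich wells, at 15.4 and 28.6 CPM in basal and luminal sums.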

How the data were processed

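The authors aligned read pairs to mm10 with Subread and summarised them with featureCounts (built-in RefSeq annotation; versions not given in the sources used here), and deposited raw counts per Entrez gene and cell with an exon length. The files of the single cells were read, and the combined table was left aside. Of 27179 identifiers, 25275 matched a RefSeq symbol of GRCm38.p6, the assembly of mm10; the 1904 others held 1.94% of reads. After removal of 15 mitochondrial and 124 ribosomal protein genes, the study's thresholds were applied (50000 reads and 1000 genes for basal, 100000 and 1500 for luminal cells), then a filter of 1 CPM in 3 cells. The study looked at captured cells under a microscope before cDNA synthesis, and no doublet caller was run here.

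Reads were added up over the wells of a population, and ratios were taken as log2 of CPM with 1 CPM added. This ratio step was tested on simulated Poisson counts, and 99.5% of 200 changed genes came within 0.2. The simulated cells differed only in depth and population. Reads held by few wells were not simulated, so the result covers the calculation and not the stability of the ratios. Wells were thinned to 50000 reads without replacement, with 1 random stream per well. Sums have exact Poisson and shares exact Clopper-Pearson intervals (95%). Without molecular identifiers these cover counting error only, and their width follows the summed reads of the gene and the number of wells. Total reads per cell ranged from 3105 to 3784407 over all cells before any filter. No p-value was computed. RPKM used the deposited exon length. The members, marker lists and pathway lists were chosen with earlier results of these data known. Named are the 10 members, Pecam1, Emcn, the 3 genes of highest RPKM per pathway list, those at least 5-fold apart with at least 100 CPM and the same direction on plate B, the 3 nearest genes by rho of members with a read in at least 10 wells (over all wells, and within a population for a part of them; 1 such gene is not reported here), and the wells with most reads. Alternatives covered filters, plates, scaling (TMM of edgeR 4.0.16 in R 4.3.3, median of ratios), the added constant, depth, and leaving out wells. Python 3.11.15, numpy 2.4.6, scipy 1.17.1 and pandas 2.3.3 were used.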

Additional observations from a re-analysis of the deposited data

Results flagged for a closer look

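The 24 basal and 14 luminal wells below the thresholds entered no sum above, and 4 of the genes were found in them above the level that a count of 0 allows (3 counts of the summed reads, 11.3 CPM in basal and 7.27 CPM in luminal wells). Fabp4 stood at 184 CPM in the basal wells (49 reads in 16 wells) and 19.4 CPM in the luminal wells (8 reads in 5 wells). Cd36 stood at 199 CPM in the basal wells (53 reads in 16 wells) and 29.1 CPM in the luminal wells (12 reads in 6 wells). Of the 14 basal wells below the thresholds on plate B, 14 held Cd36 and 13 also held Fabp4, with at most 10 reads of Fabp4 and 9 of Cd36 in a well, and the 6 marker-rich basal wells are on the same plate. Plin2 stood at 26.3 CPM in the basal wells (7 reads in 7 wells) and 65.4 CPM in the luminal wells, where luminal cell 57 held 22 of 27 reads. Scd1 stood at 414 CPM in the basal wells, where basal cell 78 held 105 of 110 reads. The source of these reads was not tested.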

How the results depend on the processing

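No paired analysis was possible because each population is 1 sample and the cell numbers are labels of wells. The count of members at least 2-fold higher in luminal cells was 4, and 2 with 10 CPM added; it was 3 to 5 under the other alternatives. The count higher in basal cells was 2, but 4 on plate B alone. It was 1 without wells holding at least 4 endothelial markers or without those holding at least 8. It was also 1 without each member's top well, the 1 well with its most reads over both populations. For Fabp4 that well was basal cell 72 and no luminal well was left out, so only the basal sum was cut, and the log2 ratio was -0.84. The Fabp4 log2 ratio changed sign from -1.61 to 0.65 and 0.57 without wells of at least 4 and at least 8 markers. The 6 pairs of gene and population with over 50% of the reads in 1 well became 11 on plate B alone, where fewer wells are ranked. The 18 wells with Fabp4 and Pecam1 or Emcn became 10 on plate B, 6 and 8 without wells of at least 4 and at least 8 markers, 10 with at least 5 reads, 11 at 50000 and at 100000 reads, and 10 at 10 CPM. The 14 wells with Cd36 and Pecam1 or Emcn became 8 on plate B and 2 and 4 without those wells.

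Scaling by the median of ratios moved the median log2 ratio of all genes by -0.18 and left Scd2 at 0.98; TMM moved it by 0.08 and put Fasn at 1.01. Signs also changed for ratios within 2-fold. Cd36 (-0.65) had 0.96 and 0.84 without wells of at least 4 and at least 8 markers and 0.66 without its top well. In the same order Pparg (-0.54) had 0.23, 0.22 and 0.26, and it had 0.18 when CPM was averaged over wells. For both genes the top well left out was basal cell 95. Luminal cells 25 and 27, with 22276 Cd36 and 182 Pparg reads, stayed in, so only the basal sums were cut. Leaving out the top well of each population was not done. Lpl (0.60) had -0.92 on plate B. Under the alternatives listed at the outset, 61 log2 ratios of members stayed within the counting interval and 58 moved outside it, besides that of Fabp4 above, and 138 shares of wells stayed while 42 moved. These totals mix unlike alternatives. All 10 ratios and all 20 shares stayed with no cell filter and with 100000 reads and 1500 genes asked of both populations. On plate B alone 10 ratios moved, and 9 moved without the top well, with 10 CPM added or with the median of ratios. The rules of 8 markers and of 10 CPM in both genes were added after the data had been seen. With 1 sample per population, spread between animals is unknown, and shares rest on 22 to 76 wells.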
